A study of Mus musculus with 11 samples.

Results

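The Hox genes and the Evx genes that lie beside them were followed in mouse bone marrow stromal cells after doxorubicin chemotherapy. Members were taken by name, as every Hoxa, Hoxb, Hoxc or Hoxd gene with a number and the neighbours Evx1 and Evx1os, which gave 35 of the 24718 genes in the count table. They comprised 11 HoxA, 8 HoxB, 9 HoxC and 5 HoxD genes and the 2 Evx genes. Evx2, Hoxb1, Hoxb13, Hoxd1, Hoxd3, Hoxd4 and Hoxd12 had no row under these names in the count table used, so cluster shares rest on the genes present.

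Hox genes encode homeodomain transcription factors that give cells their position along the body and limb axes. They stand in 4 clusters, and their order along the chromosome follows the order in which they are used from the head end to the tail end and from shoulder to digit. Stromal and skeletal cells of the adult keep the Hox pattern of the place where they formed, and Hoxa11 is known in mice as a regional mark of progenitor cells in the lower limb bones. Evx1 encodes a homeodomain protein related to the fly gene even-skipped and lies next to Hoxa13 at the posterior end of HoxA. Evx1os is a long noncoding RNA transcribed from the opposite strand at Evx1.

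The libraries came from female Lepr-Cre;LSL-tdTomato+/- mice, in which Cre recombinase driven by the leptin receptor gene turns on a red fluorescent protein, and tdTomato-positive marrow cells were sorted for poly(A) RNA-seq. The sort therefore draws on cells that expressed Lepr at some time and on their descendants, and transcripts of blood cells were present as well. The labels do not say from which bones the marrow came. The DOX4X group (4 mice aged 8 to 10 weeks) received 4 intravenous injections of doxorubicin at 5 mg/kg, 1 week apart. The DOX1X group (3 young adult mice) received 1 injection at 10 mg/kg, and the PBS group (4 mice, no age given) received 4 injections of saline. Doxorubicin is an anthracycline that traps topoisomerase II on DNA. All mice were killed 8 weeks after treatment, so the values describe what remained at that time and not the acute response.

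Total counts lay between 31129352 and 36888310 in DOX4X, between 33496356 and 42002065 in DOX1X, and between 29540422 and 42784036 in PBS. All 17 genes of the stromal identity list (Cxcl12, Lepr, Kitl and others), the markers of the labelled cell type, were expressed, and they summed to between 71494 and 84677 CPM (counts scaled to a fixed library size, with TMM factors) in DOX4X, between 70555 and 88477 CPM in DOX1X and between 76315 and 87811 CPM in PBS. The title of PBS 4 begins with the abbreviation for doxorubicin while its treatment label is PBS, and values without it are given where they bear on a result. Flow cell 1 carried all PBS libraries with DOX1X 1 and 2, and flow cell 2 carried all DOX4X libraries with DOX1X 3. In bulk samples fewer cells of a type and less RNA per cell cannot be told apart.

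Posterior HoxA genes dominated the Hox RNA of these cells. On a scale of CPM per kilobase of exon, which allows levels of different genes to be compared, Hoxa10 alone made up between 39.5% and 42.6% of the summed Hox level in DOX4X, between 40.3% and 41.3% in DOX1X and between 39.8% and 43.3% in PBS. Hoxa10, which patterns the hindlimb and the lumbar region, averaged 53.7 ± 4.98 CPM per kb (SD, n = 4) in DOX4X, 55.0 ± 2.09 (n = 3) in DOX1X and 54.95 ± 4.46 (n = 4) in PBS. Hoxa9, its neighbour and next in the order, stood at 11.5 ± 1.22 in DOX4X, 11.6 ± 1.19 in DOX1X and 10.8 ± 1.09 in PBS. The gap between these neighbours was far wider than the spread among libraries. Hoxc10, Hoxa7, Hoxa11 and Hoxc6 followed in PBS with 7.35, 7.28, 6.34 and 6.17 CPM per kb. Hoxc10 and Hoxa7 differed by less than their SD (0.39 and 0.52), as did Hoxa11 and Hoxc6 (0.83 and 0.34).

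By cluster, HoxA held between 66.6% and 70.9% of the summed Hox level per kb in DOX4X, between 67.9% and 69.6% in DOX1X and between 68.8% and 73.8% in PBS. HoxC came next with between 21.4% and 25.5% in DOX4X, between 23.7% and 24.2% in DOX1X and between 19.6% and 24.1% in PBS. HoxD, led by Hoxd8, held between 3.49% and 5.10% in any library, and HoxB, led by Hoxb7, between 1.97% and 4.37%. The 3 groups overlapped in the share of every cluster. Among the 35 genes, Evx1os and Evx1 ranked 25 and 26 per kb in DOX4X, 24 and 26 in DOX1X, and 14 and 16 in PBS.

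**Figure D1:**
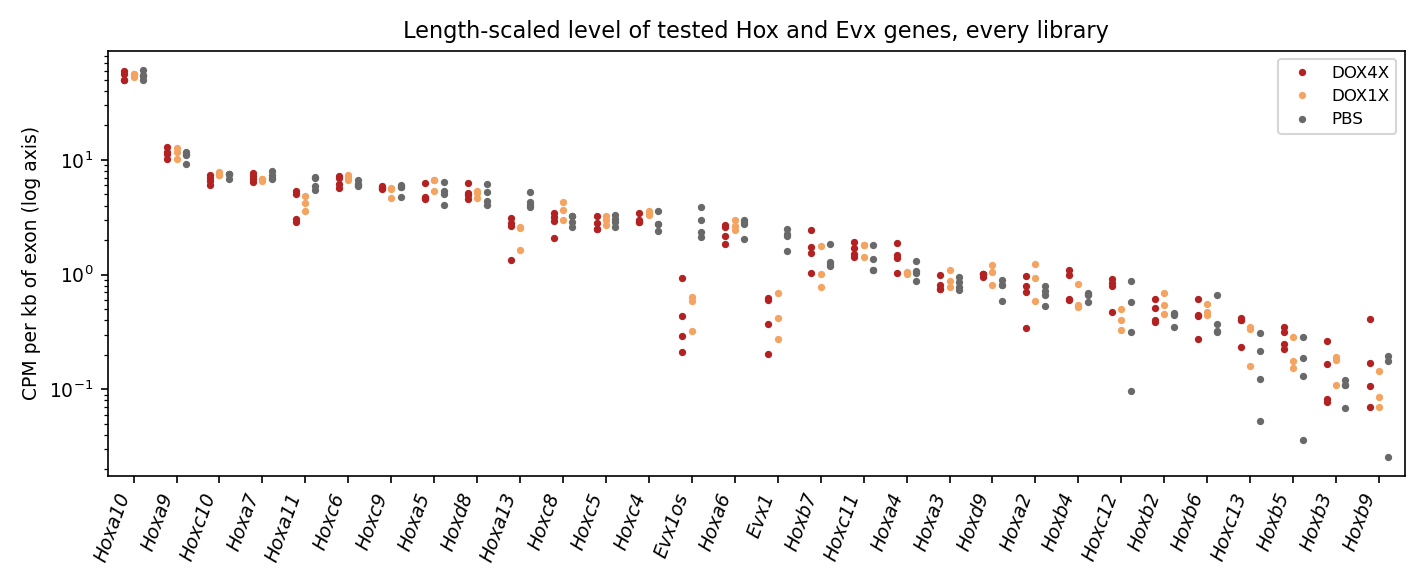
Level of 30 tested Hox and Evx genes in CPM per kilobase of exon (logarithmic y axis), 1 point per library, with DOX4X, DOX1X and PBS from left to right within each gene and genes ordered by their PBS mean. The points of the 3 groups lie together for most genes, and those of Evx1os, Evx1, Hoxa11 and Hoxa13 lie lower in DOX4X and DOX1X; Hoxb9 in PBS 3 has a value of 0 and cannot be drawn on this axis.

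Of the 35 genes, 31 had enough counts to be tested. The other 4 were Hoxb8, Hoxd10, Hoxd11 and Hoxd13, each with at most 9 counts in any library. Hoxd10, Hoxd11 and Hoxd13, which pattern the forearm, hand and foot with their HoxA counterparts, were thus near the limit of detection, while Hoxa10, Hoxa11 and Hoxa13 were measured in all libraries. Hoxd11 had 0 counts in every DOX4X library, which allows a level of up to 0.0902 CPM in the shallowest of them. Hoxb8 had 5, 4, 8 and 5 counts in DOX4X, 1, 0 and 3 counts in DOX1X, and 0, 0, 0 and 2 counts in PBS. Its DOX4X libraries lay above the others, but at this depth it was left out of the main fit. Such a gap to PBS was seen for 3.17% of all genes tested in DOX4X against PBS.

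Evx1 and Evx1os were the members that changed after 4 doses. Evx1 had 1.07, 0.585, 1.74 and 1.80 CPM in DOX4X, 1.20, 0.788 and 1.97 CPM in DOX1X, and 6.24, 6.47, 7.25 and 4.64 CPM in PBS. These came from 20 to 66 counts in DOX4X, 26 to 75 counts in DOX1X and 139 to 246 counts in PBS. Every doxorubicin library lay below every PBS library, with a wide gap between them. Evx1 fell by 2.24 on the log2 scale in DOX4X against PBS (SE 0.37, edgeR's quasi-likelihood test, adjusted p = 0.048), to 21.2% of the PBS level.

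Evx1os had 1.32, 0.644, 2.80 and 0.872 CPM in DOX4X, 1.76, 0.970 and 1.92 CPM in DOX1X, and 9.11, 7.14, 11.7 and 6.37 CPM in PBS. Again no doxorubicin library reached the lowest PBS library. Evx1os fell by 2.61 in DOX4X against PBS (SE 0.43, edgeR adjusted p = 0.048), to 16.4% of the PBS level. Among all 17838 genes tested, 26 passed the threshold in this comparison, all lower, which is 0.146% of them, and 2 of the 31 members were among those 26. By p, Evx1os ranked 21 and Evx1 ranked 24. Both adjusted p lay just under 0.05: neither gene passed when any 1 library other than PBS 4 or DOX1X 3 was left out, with upper quartile factors (adjusted p = 0.054 for Evx1 and 0.057 for Evx1os), or in a fit of these groups alone (0.060 and 0.061). The log2 fold changes with a library left out lay between -2.44 and -1.99 for Evx1 and between -3.17 and -2.35 for Evx1os, and without PBS 4 they were -2.35 and -2.72 (adjusted p = 0.032 for both). Over all alternatives the adjusted p ran from 2.63e-07 to 0.16 for Evx1 and from 1.06e-07 to 0.31 for Evx1os, and both fold changes were negative in each.

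The library kit does not mark strand, and in the GENCODE annotation the exons of Evx1 and Evx1os share 73 bases on opposite strands, 2.54% of the exon bases of Evx1 and 2.42% of those of Evx1os. Reads in these shared bases cannot be assigned to one gene. Evx1os made up between 32.7% and 61.6% of the pair's counts in DOX4X, between 49.3% and 59.5% in DOX1X and between 52.5% and 61.7% in PBS. With their counts summed, a step added after the data were seen, the pair stood at 2.40, 1.23, 4.54 and 2.67 CPM in DOX4X, 2.96, 1.76 and 3.89 CPM in DOX1X, and 15.3, 13.6, 18.9 and 11.01 CPM in PBS. As 1 gene the pair fell by 2.44 in DOX4X against PBS (SE 0.36, edgeR adjusted p = 0.039).

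The bases before the start sites of this pair and of Hoxa13, the nearest Hox gene on the cluster side, are shown because these genes lie together and were lower together. They are the 250 bases upstream of the RefSeq start of each gene in GRCm38.p6, read 5′ to 3′ on the gene's strand: chr6:52313248-52313497 (plus strand) for Evx1, chr6:52314833-52315082 (minus strand) for Evx1os and chr6:52260881-52261130 (minus strand) for Hoxa13. Capitals mark matches, on either strand, to the homeodomain core TAAT, the CCAAT box, the GC box GGGCGG, the TATA box TATAAA, the E-box CACGTG, a PBX-HOX composite TGATTNAT or a posterior HOX motif TTTACGA. A p53 half-site was searched for without being marked, and none of these stretches held one.
Evx1: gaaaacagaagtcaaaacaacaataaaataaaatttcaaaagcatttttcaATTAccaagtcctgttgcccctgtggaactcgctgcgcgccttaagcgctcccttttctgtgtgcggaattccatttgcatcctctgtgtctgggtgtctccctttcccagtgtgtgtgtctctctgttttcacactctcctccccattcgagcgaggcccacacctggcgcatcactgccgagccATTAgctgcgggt
Evx1os: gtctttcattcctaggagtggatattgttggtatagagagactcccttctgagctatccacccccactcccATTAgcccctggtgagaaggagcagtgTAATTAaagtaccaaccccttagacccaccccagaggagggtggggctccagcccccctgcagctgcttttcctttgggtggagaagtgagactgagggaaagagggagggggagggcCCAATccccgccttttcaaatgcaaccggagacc
Hoxa13: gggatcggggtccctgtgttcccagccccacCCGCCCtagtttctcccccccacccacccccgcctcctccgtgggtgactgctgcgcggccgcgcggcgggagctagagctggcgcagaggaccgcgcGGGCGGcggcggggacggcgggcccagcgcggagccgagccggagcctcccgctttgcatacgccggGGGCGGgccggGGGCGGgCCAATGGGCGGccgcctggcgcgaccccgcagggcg
The Evx1 stretch lies in an exon of Evx1os, has a GC content of 49.6% with 10 CpG dinucleotides, and holds 2 TAAT cores and no other match. That of Evx1os lies within the body of Evx1 but in no annotated exon, has a GC content of 55.6% with 2 CpG dinucleotides, and holds 3 TAAT cores (an overlapping pair of them in TAATTA) and 1 CCAAT box. The Hoxa13 stretch differs from both, with a GC content of 80.0%, 35 CpG dinucleotides, 5 GC boxes, 1 CCAAT box that abuts one of them, and no TAAT core. Over 32851 mouse promoter stretches of this length the median was 52.4% GC and 6 CpG dinucleotides. Of these stretches, 54.9% held a TAAT core, 33.8% a CCAAT box, 32.7% a GC box, 12.4% a TATA box, 7.13% a p53 half-site, 6.02% the E-box, 2.82% the PBX-HOX composite and 0.478% the posterior HOX motif. The matches are descriptions of letters and not bound sites.

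The neighbouring posterior genes Hoxa13 and Hoxa11 lay lower after doxorubicin as well, without passing the threshold. Hoxa13, which patterns the hand and foot, had 7.74, 3.31, 6.50 and 6.92 CPM in DOX4X, 6.24, 6.43 and 4.05 CPM in DOX1X, and 9.54, 9.98, 12.9 and 10.6 CPM in PBS. The PBS libraries were the highest, with no overlap. Its log2 fold change in DOX4X against PBS was -0.81 (SE 0.25, edgeR unadjusted p = 0.0068, adjusted p = 0.20).

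Hoxa11, which patterns the forearm and lower leg, had 12.3, 6.55, 11.5 and 6.95 CPM in DOX4X, 11.1, 9.67 and 8.25 CPM in DOX1X, and 12.4, 13.4, 15.8 and 16.4 CPM in PBS. All doxorubicin libraries lay below the PBS libraries, although DOX4X 1 came close to PBS 1. Its log2 fold change in DOX4X against PBS was -0.64 (SE 0.21, edgeR unadjusted p = 0.011, adjusted p = 0.23). Exons of Hoxa11 share 800 bases, 35.0% of its exon length, with the antisense RNA Hoxa11os in the annotation, so the counts of these 2 genes are uncertain without strand. Hoxa11os itself had -0.63 (SE 0.28, edgeR adjusted p = 0.35).

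**Figure D2:**
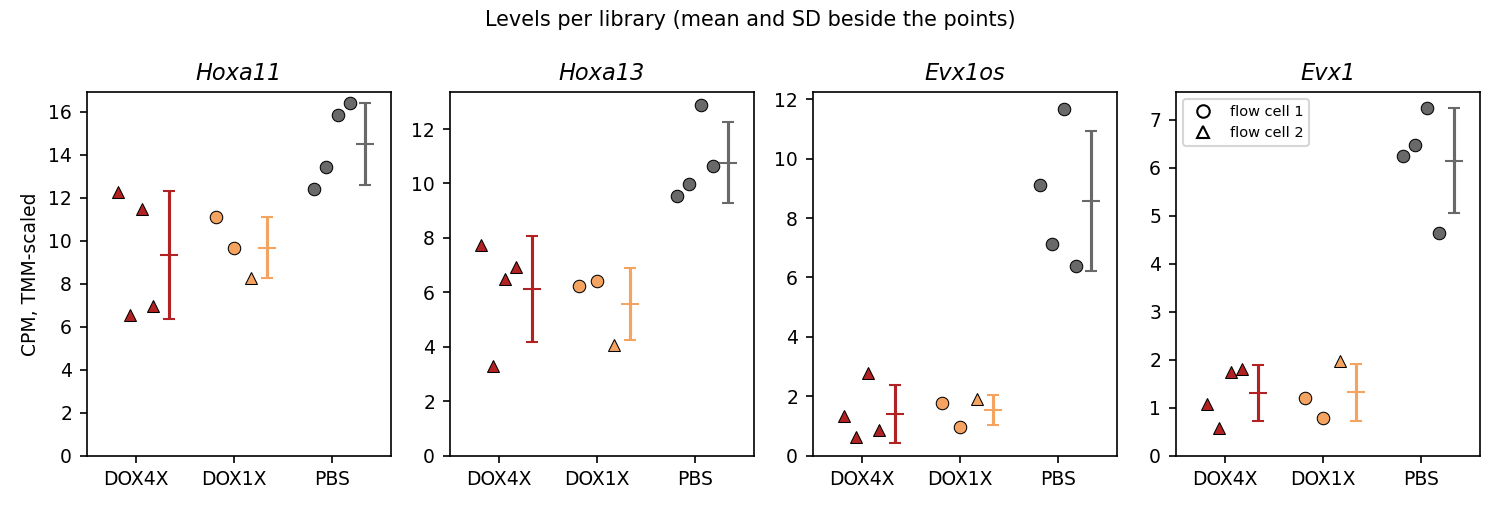
CPM per library (y axis, TMM-scaled, each panel with its own scale from 0) of Hoxa11, Hoxa13, Evx1os and Evx1 in DOX4X, DOX1X and PBS, with circles for flow cell 1 and triangles for flow cell 2, and the mean and SD beside the points. In each panel the 4 PBS libraries lie above all 7 doxorubicin libraries, including DOX1X 1 and 2, which shared flow cell 1 with PBS.

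Along the chromosome the lower genes were neighbours. From Hoxa11 to Evx1, each gene tested (Hoxa11, Hoxa11os, Hoxa13, Evx1os and Evx1) had a negative log2 fold change in DOX4X against PBS and in DOX1X against PBS, while Hottip, the noncoding RNA beyond Hoxa13, had too few counts to be tested. This run was picked out after the values were seen, and both comparisons use the same PBS libraries. Immediately on its anterior side stood Hoxa10, with 182, 163, 195 and 161 CPM in DOX4X, 185, 182 and 172 CPM in DOX1X, and 163, 181, 176 and 199 CPM in PBS. Its groups overlapped throughout, and its log2 fold change in DOX4X against PBS was -0.03 (SE 0.08, 95% interval from -0.20 to 0.13). Hoxa9 had 0.09 (SE 0.10). On the far side of Evx1, Hibadh (a mitochondrial enzyme of valine breakdown) had -0.15 (SE 0.06, edgeR adjusted p = 0.32), Tax1bp1 (an autophagy receptor) -0.06 (SE 0.07) and Jazf1 (a zinc finger gene) 0.15 (SE 0.20).

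The anterior and central HoxA genes lay on both sides of 0. Hoxa2 and Hoxa3, which act in the hindbrain and pharyngeal region, had 0.05 (SE 0.34) and -0.02 (SE 0.17). Hoxa4 had 0.43 (SE 0.23), Hoxa5 -0.05 (SE 0.16), Hoxa6 -0.20 (SE 0.21) and Hoxa7 -0.05 (SE 0.09), all in DOX4X against PBS. Their libraries overlapped between these groups in each case. Of the 11 HoxA genes, 3 had a fold change above 0 in DOX4X against PBS, with a median of -0.05, and 7 in DOX1X against PBS, with a median of 0.00353, where 52.2% and 51.2% of all genes did.

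**Figure D3:**
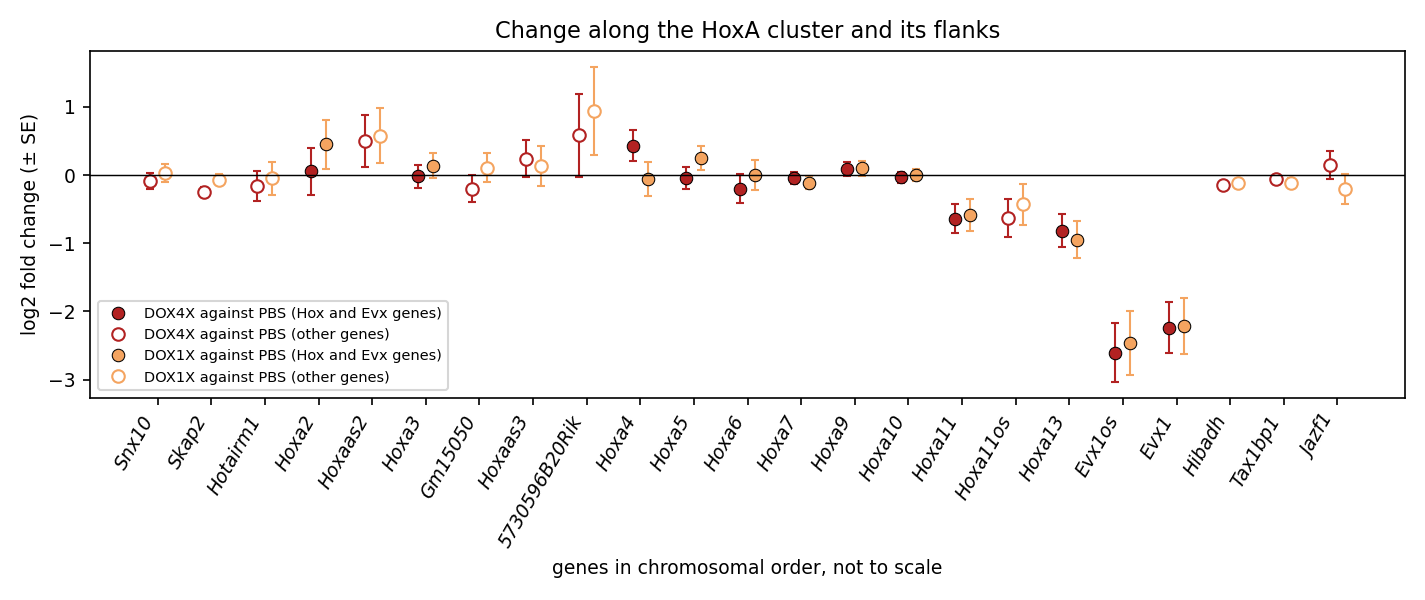
Log2 fold change against PBS (y axis, ± SE) of genes of HoxA and its flanks in chromosomal order (x axis, not to scale), with DOX4X left of DOX1X for each gene, filled circles for Hox and Evx genes and open circles for other genes. Evx1os and Evx1 lie lowest, at -2.61 and -2.24 in DOX4X, Hoxa11 and Hoxa13 lie at -0.64 and -0.81 in DOX4X, and the Hox genes up to Hoxa10 lie on both sides of 0, with Hoxa4 at 0.43 in DOX4X and Hoxa2 at 0.45 in DOX1X.

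The HoxB, HoxC and HoxD genes did not pass the threshold in any comparison. Hoxc13, a gene of hair, nail and tail development, was the member with the highest positive fold change after 4 doses. It had 0.578, 0.995, 0.993 and 1.04 CPM in DOX4X, 0.856, 0.819 and 0.394 CPM in DOX1X, and 0.533, 0.768, 0.129 and 0.300 CPM in PBS, from 4 to 38 counts per library. DOX4X 1 lay within the PBS range, so the groups overlapped. Its log2 fold change in DOX4X against PBS was 1.05 (SE 0.47, edgeR unadjusted p = 0.048, adjusted p = 0.36). The value of Hoxc13 was 2.13 (SE 0.95) once flow cell entered the fit, and lay between 0.75 and 1.45 when a library was left out.

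Hoxc6, a thoracic and forelimb gene with the highest HoxC value in CPM before scaling by length, had 17.3, 13.8, 14.9 and 16.6 CPM in DOX4X, 17.2, 16.0 and 17.8 CPM in DOX1X, and 14.2, 14.4, 16.0 and 14.8 CPM in PBS. DOX4X overlapped PBS, while the DOX1X libraries lay just above the PBS libraries. Its log2 fold change was 0.08 (SE 0.10) in DOX4X against PBS and 0.20 (SE 0.11, edgeR adjusted p = 0.73) in DOX1X against PBS. Hoxd8, the HoxD gene with the highest CPM, had 13.6, 12.6, 17.2 and 14.1 CPM in DOX4X, 12.9, 14.8 and 14.1 CPM in DOX1X, and 12.1, 17.0, 11.1 and 14.3 CPM in PBS. The groups overlapped, with log2 fold changes of 0.08 (SE 0.15) in DOX4X against PBS and 0.03 (SE 0.16) in DOX1X against PBS.

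Hoxb7, the HoxB gene with the highest CPM, had 1.60, 3.77, 2.71 and 2.40 CPM in DOX4X, 1.20, 1.58 and 2.76 CPM in DOX1X, and 1.93, 2.84, 1.84 and 2.00 CPM in PBS. The 3 groups overlapped, and DOX4X reached highest and DOX1X lowest. Its log2 fold change was 0.28 (SE 0.32) in DOX4X against PBS and -0.22 (SE 0.35) in DOX1X against PBS. Each of the 7 tested HoxB genes had a fold change above 0 in DOX4X against PBS, with a median of 0.34, where 52.2% of all genes were above 0. None had an edgeR unadjusted p under 0.05, where 13.9% of all genes did. In DOX1X against PBS 4 of the 7 were above 0, where 51.2% of all genes were. With flow cell as a term, DOX4X against PBS gave -0.29 for Hoxb2, -0.31 for Hoxb4 and -0.71 for Hoxb7, while the other HoxB genes stayed above 0. HoxB genes such as Hoxb4 are also expressed by blood stem and progenitor cells. The 16 listed markers of these cells summed to between 240.0 and 394 CPM in DOX4X, between 232 and 378 CPM in DOX1X and between 251 and 336 CPM in PBS. Of the 16, 13 were above 0 in DOX4X against PBS, with a median of 0.38, and 11 in DOX1X against PBS. At an edgeR unadjusted p under 0.05, 4 were higher and 2 lower in DOX4X against PBS (6% and 7.85% of all genes). With a score of neutrophil, monocyte, B lineage and erythroid markers as a covariate, DOX4X against PBS gave 0.40 for Hoxb2, 0.61 for Hoxb4 and 0.56 for Hoxb7. Hoxb3 had 1.22 (SE 0.39, edgeR adjusted p = 0.27), Hoxb5 0.82, Hoxb9 0.65 and Hoxb6 -0.03. That score does not use the stem and progenitor list, and the part of stem and progenitor cells in the HoxB values was not tested. Exons of Hoxb3 share 52.9% of their bases with the antisense RNA Hoxb3os and those of Hoxb2 share 27.3%, so both are uncertain as single genes.

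Hoxd9 was the 1 tested member whose DOX4X libraries all lay above the PBS libraries, with 2.15, 2.02, 2.17 and 2.15 CPM in DOX4X, 2.25, 2.61 and 1.73 CPM in DOX1X, and 1.75, 1.74, 1.26 and 1.93 CPM in PBS. Such a gap was seen for 3.17% of all genes tested in this comparison. Its log2 fold change in DOX4X against PBS was 0.34 (SE 0.21, edgeR adjusted p = 0.50). The lowest DOX1X library lay inside the PBS range.

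**Figure D4:**
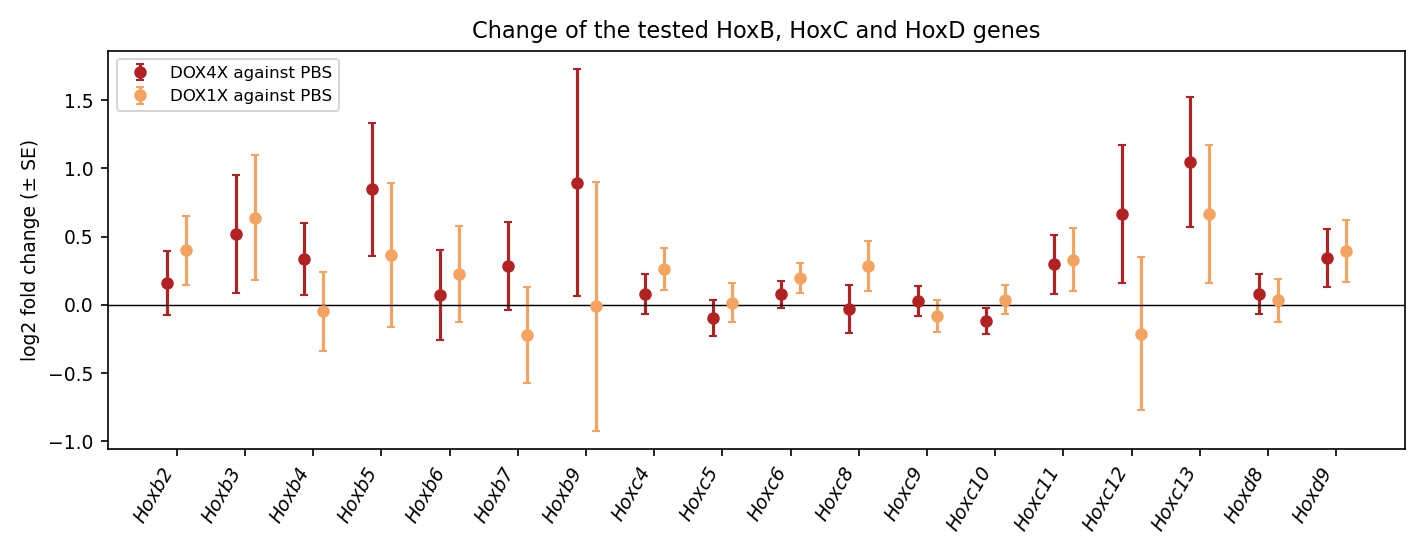
Log2 fold change against PBS (y axis, ± SE) of the tested HoxB, HoxC and HoxD genes (x axis, by cluster and number), with DOX4X left of DOX1X for each gene. Most values lie within 0.5 of 0, Hoxc13 stands at 1.05 in DOX4X, and the SE widens for the genes with the lowest counts, up to 0.83 in DOX4X and 0.91 in DOX1X for Hoxb9.

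Counted over all 31 tested members, 5 had an unadjusted p under 0.05 in DOX4X against PBS, or 16.1%, against 13.9% of all genes tested. Of these, 4 were lower and 1 was higher, where 7.85% and 6% of all genes were. In this comparison 4 tested members lay lower with no overlap between the groups (Evx1, Evx1os, Hoxa11 and Hoxa13), or 12.9%, against 4.68% of all genes. The median log2 fold change was 0.07 over the members and 0.01 over all genes. Those 5 were Hoxa11, Hoxa13, Evx1, Evx1os and Hoxc13. The other 26 members, which by this choice had no unadjusted p under 0.05, ranged from -0.20 (Hoxa6) to 0.90 (Hoxb9). For the 12 better measured Hox genes among them, those with a mean of at least 5 CPM, the log2 fold changes ran from -0.12 (Hoxc10) to 0.09 (Hoxa9). No 95% interval, taken from the normal distribution, reached beyond -0.37 or 0.37. Hoxa11 and Hoxa13 also have such a mean and were left out of the 12 for their p, so this narrow range describes a selected set. Across all 11 libraries the coefficient of variation was 95.2% for Evx1os and 83.1% for Evx1, against 6.95% for Hoxa7 and 7.03% for Hoxa10.

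After a single dose no member passed the threshold against PBS with edgeR, where 1 of all genes tested did (0.00561%), and 4 members had an unadjusted p under 0.05, or 12.9%, against 7.16% of all genes. All 4 were lower, where 3.74% of all genes were. Injections numbered 1 in DOX1X and 4 in PBS, so the comparison also differs in that. In DOX1X against PBS the log2 fold change of Evx1 was -2.21 (SE 0.41, edgeR unadjusted p = 1.78e-04, adjusted p = 0.44) and Evx1os -2.46 (SE 0.47, adjusted p = 0.44). DESeq2 called both (adjusted p = 4.94e-05 and 5.68e-05), among 41 of all genes (0.235%). Hoxa13 had -0.95 (SE 0.27, edgeR adjusted p = 0.58) and Hoxa11 -0.58 (SE 0.23, adjusted p = 0.64). For these 4 genes the DOX1X libraries lay below the PBS libraries, and Hoxc6 was the 1 tested member above them without overlap, against 3.82% of all genes lower and 3.18% higher. Across the 12 better measured Hox genes the values in DOX1X against PBS ran from -0.11 (Hoxa7) to 0.28 (Hoxc8).

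The 2 schedules gave no detectable difference in any of the 31 tested members. In DOX4X against DOX1X, 0 of 31 members passed the threshold with edgeR or DESeq2, where 1 of all genes did with edgeR (0.00561%) and 28 with DESeq2 (0.167%), and 0 had an unadjusted p under 0.05, against 4.36% of all genes. Tested members with groups that did not overlap numbered 0, against 3.19% of all genes higher and 2.79% lower. Evx1 had a log2 fold change of -0.02 (SE 0.39, 95% interval from -0.80 to 0.75) and Evx1os -0.14 (SE 0.45, interval from -1.03 to 0.74). Hoxa13 had 0.14 (SE 0.27, interval from -0.39 to 0.66) and Hoxa11 -0.05 (SE 0.23, interval from -0.50 to 0.39). The intervals of the Evx genes are wide.

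Flow cell and group coincided for DOX4X and PBS, and the DOX1X libraries were the only ones on both flow cells. Within flow cell 1, DOX1X 1 and 2 against PBS 1 to 4 gave -2.62 for Evx1 (SE 0.32, edgeR adjusted p = 0.082), -2.64 for Evx1os (SE 0.37, adjusted p = 0.17), -0.77 for Hoxa13 (SE 0.19) and -0.49 for Hoxa11 (SE 0.17), a fit added after the data were seen. With flow cell as a term, DOX4X against PBS gave -3.22 for Evx1 (SE 0.65, edgeR adjusted p = 0.16), -3.09 for Evx1os (SE 0.82, adjusted p = 0.31), -0.17 for Hoxa13 (SE 0.47) and -0.31 for Hoxa11 (SE 0.42), values that rest in part on DOX1X 3 alone.

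Some markers of other cells also moved with the groups. The 14 osteoblast and osteocyte markers summed to between 12836 and 16944 CPM in DOX4X, between 16966 and 23023 CPM in DOX1X and between 17516 and 30922 CPM in PBS. In DOX4X against PBS 1 of the 14 was above 0, where 52.2% of all genes were. With edgeR 1 passed the threshold (Spp1, lower), where 0.146% of all genes did. At an edgeR unadjusted p under 0.05, 0 were higher and 5 lower (6% and 7.85% of all genes). The 14 fibroblast and periosteal markers summed to between 2180 and 3421 CPM in DOX4X, between 2595 and 3286 CPM in DOX1X and between 3226 and 4214 CPM in PBS, with 7 of 14 above 0, 0 past the threshold with edgeR, and 2 higher and 4 lower at an unadjusted p under 0.05 (6% and 7.85% of all genes). Erythroid markers summed to between 642 and 1562 CPM in DOX4X, between 488 and 1219 CPM in DOX1X and between 292 and 913 CPM in PBS, and none was at 0. In DOX4X against PBS 15 of 15 were above 0 (52.2% of all genes), 10 of them at an edgeR unadjusted p under 0.05 (6% of all genes higher). Of 15 B lineage markers 13 were above 0 in that comparison, 10 of them at such a p. Their sums overlapped, with between 643 and 1415 CPM in DOX4X, between 1031 and 1666 CPM in DOX1X and between 590 and 1227 CPM in PBS. All 14 endothelial markers were above 0 in DOX4X against PBS, 5 of them at such a p, and 0 of 14 in DOX1X against PBS. The score of blood-cell markers was 0.68, 0.71, -0.31 and -0.08 in DOX4X, 0.84, 0.58 and -0.34 in DOX1X, and -0.83, -0.41, -0.06 and -0.78 in PBS, in log2 units. With this score as a covariate, DOX4X against PBS gave -1.84 for Evx1 (SE 0.37, edgeR adjusted p = 0.13) and -2.36 for Evx1os (SE 0.48, adjusted p = 0.13), and neither passed. The part of osteoblast and periosteal cells in the values of Evx1, Evx1os, Hoxa13 and Hoxa11 was not tested.

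The partners of Hox proteins on DNA were measured alongside. Of the 14 listed Hox cofactors, the Pbx and Meis families and their relatives, none passed the threshold in DOX4X against PBS with edgeR. In that comparison 7 were above 0, where 52.2% of all genes were, with a median of -0.02. Meis1, which binds DNA together with Hox proteins, averaged 24.8 ± 3.16 CPM (SD, n = 4) in DOX4X, 26.8 ± 2.62 (n = 3) in DOX1X and 26.3 ± 2.34 (n = 4) in PBS. Its group means differed by less than their SD. Gmnn, which encodes geminin, a replication licensing inhibitor that can bind Hox proteins, had 0.86 (SE 0.27, edgeR unadjusted p = 0.0075, adjusted p = 0.21) and was the 1 cofactor with an unadjusted p under 0.05, and the 1 that DESeq2 called, where 13.9% of all genes had such a p and DESeq2 called 599 (4.39%). It had 0.73 (SE 0.28, adjusted p = 0.63) in DOX1X against PBS.

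Chromatin regulators that hold Hox genes off (Polycomb) or on (trithorax) were listed as 34 genes. In DOX4X against PBS none passed the threshold with edgeR, with 5 higher and 1 lower at an unadjusted p under 0.05 (6% and 7.85% of all genes) and a median of 0.08. DESeq2 called 1 of the 34 (Ezh2), where it called 4.39% of all genes. Ezh2, the H3K27 methyltransferase of Polycomb, averaged 33.8 ± 5.28 CPM (SD, n = 4) in DOX4X, 31.9 ± 6.26 (n = 3) in DOX1X and 22.95 ± 3.53 (n = 4) in PBS, and the log2 fold change was 0.56 in DOX4X against PBS (SE 0.15, edgeR adjusted p = 0.17). Bmi1, a subunit of the other Polycomb complex, averaged 83.3 ± 1.78 CPM in DOX4X, 95.7 ± 9.09 in DOX1X and 99.7 ± 7.84 in PBS, with -0.26 (SE 0.08, adjusted p = 0.19). The list summed to between 2056 and 2182 CPM in DOX4X, between 2030 and 2178 CPM in DOX1X and between 2061 and 2144 CPM in PBS, and the groups overlapped.

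Retinoic acid and Cdx proteins act upstream of Hox genes in the embryo. Of 16 tested genes of this list, 4 were above 0 in DOX4X against PBS, with a median of -0.27, where 52.2% of all genes were above 0. None passed the threshold with edgeR, and 5 had an unadjusted p under 0.05, all lower, where 7.85% of all genes were. Aldh1a2, the main enzyme that makes retinoic acid, averaged 882 ± 204 CPM (SD, n = 4) in DOX4X, 1013 ± 419 (n = 3) in DOX1X and 1693 ± 419 (n = 4) in PBS. Its DOX4X libraries, at most 1182 CPM, lay below its PBS libraries, at least 1376 CPM, as for 4.68% of all genes tested. The log2 fold change of Aldh1a2 was -0.94 (SE 0.25, edgeR adjusted p = 0.15). Cyp26b1, which breaks retinoic acid down, had -1.66 (SE 0.54, adjusted p = 0.22), Crabp1, a retinoic acid binding protein, -1.25 (SE 0.46, adjusted p = 0.26), and Rarg, a retinoic acid receptor, -0.37 (SE 0.14, adjusted p = 0.29). DESeq2 called Aldh1a2 and Cyp26b1, against 4.39% of all genes.

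Limb and body wall regulators that act with Hox genes did not pass the threshold with edgeR either. Of 24 tested, 9 were above 0 in DOX4X against PBS (52.2% of all genes), with a median of -0.15. At an edgeR unadjusted p under 0.05, 6 were lower and 2 higher, where 7.85% and 6% of all genes were. DESeq2 called 4 (Pitx1, Prrx1, Shox2 and Tbx15), against 4.39% of all genes. Pitx1, the determinant of hindlimb identity, averaged 16.6 ± 2.17 CPM (SD, n = 4) in DOX4X, 20.8 ± 1.33 (n = 3) in DOX1X and 24.7 ± 3.07 (n = 4) in PBS, and the log2 fold change was -0.57 in DOX4X against PBS (SE 0.12, edgeR adjusted p = 0.10). Shox2, a gene of proximal limb growth, averaged 72.03 ± 3.77 CPM in DOX4X, 79.5 ± 4.63 in DOX1X and 89.1 ± 5.45 in PBS, with -0.31 (SE 0.07, adjusted p = 0.12). For both, all DOX4X libraries lay below all PBS libraries, as for 4.68% of all genes tested, and both were named for their small p. Tbx4, of the hindlimb, had -1.44 (SE 0.53, adjusted p = 0.27) and Tbx5, of the forelimb, 1.48 (SE 0.55, adjusted p = 0.27).

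The last lists held the noncoding RNAs and the coding neighbours of the clusters. Of 9 tested noncoding transcripts, none passed the threshold in DOX4X against PBS with edgeR or DESeq2, and 5 were above 0, where 52.2% of all genes were. Hoxa11os was the 1 with an edgeR unadjusted p under 0.05, where 13.9% of all genes had such a p. Hotairm1, an RNA at the anterior end of HoxA, had -0.16 (SE 0.22). Of 19 tested coding genes flanking the clusters, none passed with edgeR or DESeq2, and 10 were above 0 (52.2% of all genes). At an edgeR unadjusted p under 0.05, 1 was higher and 2 lower (6% and 7.85% of all genes). Their median was 0.02. Skap1, a T cell adaptor gene beside HoxB, had 1.51 (SE 0.38, edgeR adjusted p = 0.14) at 0.871 ± 0.284 CPM (SD, n = 4) in DOX4X, 1.13 ± 0.492 (n = 3) in DOX1X and 0.305 ± 0.0869 (n = 4) in PBS. All 12 markers of T and natural killer cells were likewise above 0 in DOX4X against PBS (52.2% of all genes). They summed to between 14.9 and 38.96 CPM in DOX4X, between 16.7 and 34.3 CPM in DOX1X and between 11.1 and 19.97 CPM in PBS. The part of such cells in the Skap1 value was not tested.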

How the data were processed

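Poly(A) RNA of tdTomato-sorted marrow cells was sequenced from 11 libraries after SMART-Seq v4 Plus preparation, per the labels' protocols. The deposited values are whole-number read counts per gene without normalization. Per the submitters' processing notes the tools named are STAR 2.7.9a and featureCounts 2.0.1 on GRCm39, beside Trim Galore 0.6.6, SAMtools 1.17, FastQC 0.11.5 and MultiQC 1.7. Which annotation, strand option and rule for multi-mapping reads were set is not given in the sources used here.

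From these counts, low genes were removed by filterByExpr (edgeR 4.0.16 under R 4.3.3), and 17838 genes stayed in. Libraries were scaled by TMM, and all 11 were fitted with group means only. Group differences were tested by the two-sided quasi-likelihood test of edgeR, and p-values were adjusted by Benjamini and Hochberg's method across the 17838 genes (threshold 0.05). Each SE is the log2 fold change divided by the root of its F statistic, and 95% intervals use the normal distribution. They are therefore narrower than the quasi-likelihood test implies. Hoxa4 in DOX4X against DOX1X, for example, has an interval from 0.0048 to 0.97 with an edgeR unadjusted p of 0.072. The labels number the libraries as biological replicates, so p-values measure the spread between replicates within groups. In DOX4X against PBS that spread does not cover a difference between flow cells, which coincided with the groups. Depth sets the precision for low genes: 3 counts in a library correspond to between 0.0734 and 0.100 CPM, and this limit covers counting error only.

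The members and gene lists were chosen with earlier results of these data known. Members named in full are those with an unadjusted p under 0.05 in any comparison and the one with the highest mean CPM of each cluster, and list genes are named among those with the smallest p. Hoxd9, Hoxb8, Meis1 and the neighbours of Evx1 were named after their values were seen. Individual values of 1 member and 1 cofactor, both kept in all counts, are not reported here.

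Exon lengths and overlaps came from GENCODE M21 on GRCm38, another build than that of the counts, and all 35 members were found there. Upstream bases came from RefSeq promoters (GRCm38.p6), which held 19 of the members. Alternatives were RLE and upper quartile factors, no filter and a filter of 1 CPM in 3 libraries, DESeq2 1.42.0, limma-voom (limma 3.58.1) with quality weights, a robust prior, a fit of just the compared groups, a replicate block, flow cell as a term, a blood-cell marker covariate (mean log2 CPM of neutrophil, monocyte, B lineage and erythroid lists, prior count 2) and each library left out. Fits within a flow cell and the summed Evx pair were added after the data were seen. The fit was tested on simulated data.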

Additional observations from a re-analysis of the deposited data

Results flagged for a closer look

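In 6 of the 62 groups of 4 libraries tested over the members, 1 library stood apart from the other 3 by Dixon's criterion for the gap to the nearest library as a share of the group's range. The share was taken on log2 CPM with a prior count of 2, while the values printed below are CPM. Chance gives about 1 in 20 such groups. In DOX4X, Hoxa5 had 11.7 CPM in DOX4X 3, against 8.54 to 8.92 in the other libraries of the group. Hoxc13 had 0.578 CPM in DOX4X 1, against 0.993 to 1.04 in the others, and this library is why its groups overlapped. Hoxd9 had 2.02 CPM in DOX4X 2, against 2.15 to 2.17 in the others. In PBS, Hoxb2 had 1.23 CPM in PBS 3, against 1.55 to 1.60, and Hoxb3 had 0.291 CPM in the same library, against 0.467 to 0.507. Hoxc10 had 12.9 CPM in PBS 4, the library with disagreeing labels, against 14.3 to 14.5 in PBS 1 to 3. Neither Evx1 nor Evx1os, Hoxa11 or Hoxa13 held such a library.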

How the results depend on the processing

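In DOX4X against PBS, 2 members were called with edgeR, 3 with DESeq2 (Hoxa13 added, adjusted p = 0.035), and 0 with upper quartile factors, with the flow cell term, with the marker covariate and in a fit of these groups alone. With the Evx pair summed, 1 was called. With a library left out the count was 0 to 2, and it was 2 only without PBS 4 or DOX1X 3. In DOX1X against PBS, 0 were called with edgeR and 2 with DESeq2, and in DOX4X against DOX1X 0 in every fit. All genes called in DOX4X against PBS numbered 26 with edgeR and 599 with DESeq2, and in DOX1X against PBS 1 and 41.

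Same-numbered libraries were not shown to be paired: their deviations correlated between -0.12 and 0.35 (10 pairs). With the replicate number as a block, 1 member (Evx1os, adjusted p = 0.014; Evx1 at 0.070) was called in DOX4X against PBS, 1 (Evx1os, 0.023) in DOX1X against PBS, and 0 in DOX4X against DOX1X.

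Evx1, Evx1os, Hoxa11 and Hoxa13 stayed negative against PBS under every alternative run, and Hoxc13 positive. Some other signs turned. For Hoxa10 in DOX1X against PBS they turned with RLE factors (-0.00016), no filter (-0.0045) and DESeq2 (-5.37e-05). With the flow cell term, DOX4X against PBS gave 0.0602 for Hoxa10, -0.71 for Hoxb7 and -0.0285 for Hoxc6, and DOX4X against DOX1X gave 0.17 for Hoxa11 (0.18 on flow cell 2 alone). Hoxa13 in DOX4X against DOX1X had -0.0305 with limma-voom, and Hoxb7 in DOX1X against PBS had 0.0302 with the marker covariate. The cause was not tested. With a library left out, values in DOX4X against PBS ran from -0.0887 to 0.0180 for Hoxa10 and from -0.0200 to 0.20 for Hoxd8, and in DOX1X against PBS from -0.0478 to 0.0535 for Hoxa10, from -0.63 to 0.0121 for Hoxb7 and from -0.0509 to 0.16 for Hoxd8. In DOX4X against DOX1X they ran from -0.22 to 0.0857 for Hoxa11, from -0.0510 to 0.34 for Hoxa13, from -0.28 to 0.38 for Evx1 and from -0.71 to 0.10 for Evx1os.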

Other observations

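Grouped by paralog number, a grouping chosen after the values were seen, the genes numbered 11 to 13 held between 5.98% and 8.65% of the summed Hox level per kb in DOX4X, between 5.48% and 7.31% in DOX1X and between 8.62% and 10.6% in PBS. DOX4X and PBS met at the edge of their ranges, and DOX1X lay below PBS. The genes numbered 9 and 10 held between 58.7% and 61.3% in DOX4X, between 58.8% and 60.9% in DOX1X and between 58.4% and 60.6% in PBS, and those numbered 4 to 8 between 28.1% and 32.7% in any library. The genes numbered 1 to 3 stayed between 1.97% and 3.09%.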
